A study of Mus musculus with 8 samples.

Results

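The 9 cartilage matrix genes other than collagens, Acan, Hapln1, Matn1, Matn2, Matn3, Matn4, Comp, Cnmd and Chad, were followed in embryonic mouse lung and trachea. The members were listed by symbol, because MIA is itself a protein first described in melanoma and cartilage and because the trachea forms cartilage. The rule uses no measured value, though the members were chosen with earlier results of these data known. On the array of the E18.5 lungs 14 of 45037 probe sets carried exactly 1 of these symbols and covered all 9 genes, of 18193 named genes. On the older array of the E11.5 tissues 8 of 12422 probe sets covered 7 genes, of 8251, and Comp and Cnmd had no singly annotated probe set there.

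The study hybridised RNA of 8 FVB/N tissue samples to 1-colour Affymetrix arrays. Late fetal lungs (E18.5, embryonic day) gave 3 samples labelled as double transgenic (the bitransgenic group, which overexpresses MIA and is called SP-C/MIA) and 3 from single transgenic littermates (the control group, which carries a transgene too, though the labels do not say which). SP-C is the surfactant protein C gene of distal lung epithelium, so the label names an epithelial driver. Trachea and lung at E11.5 had 1 array each. The labels do not say that the samples of a group came from separate animals, so p-values measure the spread between these samples.

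Cartilage is a matrix of collagen fibrils filled with aggrecan, a proteoglycan whose core protein carries long chondroitin sulfate chains and binds hyaluronan through link protein. Matrilins, COMP and chondroadherin are smaller adaptor proteins that tie collagen, proteoglycan and cells together, and chondromodulin keeps cartilage free of vessels. In the mouse, cartilage rings lie in the trachea and the main bronchi rather than within the lung, and tracheal cartilage condenses later in gestation than the earlier stage sampled here.

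The 250 bases before the annotated start of 3 members are shown because these members carry the results below: Matn4 had the largest shift among members above the signal filter, Cnmd the largest shift of all, and Chad had control arrays that disagreed with one another. Sequences are from RefSeq on GRCm38.p6, are read 5′ to 3′ on the gene's own strand, and stop at the base before the start annotated for that window. For Cnmd that start lies inside the gene's annotated span, 79637682-79662194, so the last bases shown belong to the gene. Windows lie at chr2:164405161-164405410 (minus strand) for Matn4, chr14:79662184-79662433 (minus strand) for Cnmd and chr11:94564797-94565046 (plus strand) for Chad. Capitals mark TATAAA, and no capitals were due in the first and second sequence.
Matn4: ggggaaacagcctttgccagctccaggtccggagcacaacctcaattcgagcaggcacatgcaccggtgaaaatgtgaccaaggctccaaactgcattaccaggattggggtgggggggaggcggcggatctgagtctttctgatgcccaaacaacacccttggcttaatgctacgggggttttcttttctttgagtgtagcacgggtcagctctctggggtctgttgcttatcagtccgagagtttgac
Cnmd: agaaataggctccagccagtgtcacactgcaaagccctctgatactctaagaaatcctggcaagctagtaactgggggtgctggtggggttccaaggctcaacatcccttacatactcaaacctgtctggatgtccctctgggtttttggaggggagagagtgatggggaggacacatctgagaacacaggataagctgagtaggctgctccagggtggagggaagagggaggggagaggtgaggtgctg
Chad: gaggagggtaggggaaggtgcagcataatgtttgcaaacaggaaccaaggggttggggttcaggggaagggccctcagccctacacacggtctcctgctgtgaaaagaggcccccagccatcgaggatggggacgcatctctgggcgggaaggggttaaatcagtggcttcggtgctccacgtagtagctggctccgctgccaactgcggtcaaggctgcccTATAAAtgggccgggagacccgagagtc

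The windows of the members were described by motif letters and by base composition. RefSeq gave 8 such windows for 7 of the 9 members, 2 of them for Matn4. The second Matn4 window lay wholly inside the annotated span of its gene, and the Hapln1 and Cnmd windows partly. The letters ACAAAG and ACAATG, the core that SOX proteins such as the cartilage regulator SOX9 bind, were searched on both strands and occurred in 0 of the 8 windows, while 25.2% of all 32851 windows of that length held at least 1 of them. TATAAA, which does not overlap them, occurred in 12.4% of all windows and among the members only at Chad, 28 bases before the start. The Cnmd window held 0 CpG dinucleotides and the Acan window 26, at 54% and 74.4% G and C, against medians of 6 and 52.4% over all windows. A window without these letters says nothing about binding elsewhere, and 8 windows are too few to read a difference from these shares.

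Values below are MAS5 signals, linear brightness units per probe set as the authors deposited them. A log2 change is the bitransgenic minus the control mean of log2(signal + 86.4), where 86.4 is the 20th percentile of the E18.5 table. Members whose mean reached the 40th percentile of the table entered the main test, limma with Benjamini-Hochberg adjustment over 12625 genes and a threshold of 0.05. Such a log2 change understates differences between low signals. Targeted expression was present: Mia read 31399, 42666 and 41546 in the bitransgenic lungs and 1071, 1070 and 734 in the control lungs. Median signals of the 8 arrays ran from 415 to 545. The Actb 3′ to 5′ ratio, a sign of RNA quality, was 1.51 to 1.65 in bitransgenic and 1.28 to 1.5 in control arrays, so it moved with the group, and values with that ratio in the model are given beside the results.

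No cartilage matrix gene passed the test in E18.5 lungs. In the main test 5 members took part, of which 0 were called, and 0.673% of all genes tested were called. Only Matn4 was below an unadjusted limma p of 0.05, where 9.69% of all genes tested lay. With all 18193 genes in the fit 0 of 9 members were called, beside 0.319% of all genes (0.143% higher and 0.176% lower), and 2, Matn4 and Cnmd, had an unadjusted p under 0.05, beside 8.14% of all genes. By sign 3 members were higher and 6 lower in the bitransgenic lungs, with a median log2 change of -0.14, against 0.01 over all genes. That median is the value of Matn3, whose probe sets went opposite ways, and without Matn3 the counts were 3 higher and 5 lower and the median -0.17. Groups did not overlap for 4 members, Comp higher and Hapln1, Matn4 and Cnmd lower, and the share of all genes with groups that did not overlap was 7.55% higher and 6.71% lower. In whole lungs, fewer cells of a type and less RNA per cell cannot be told apart.

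**Figure D1:**
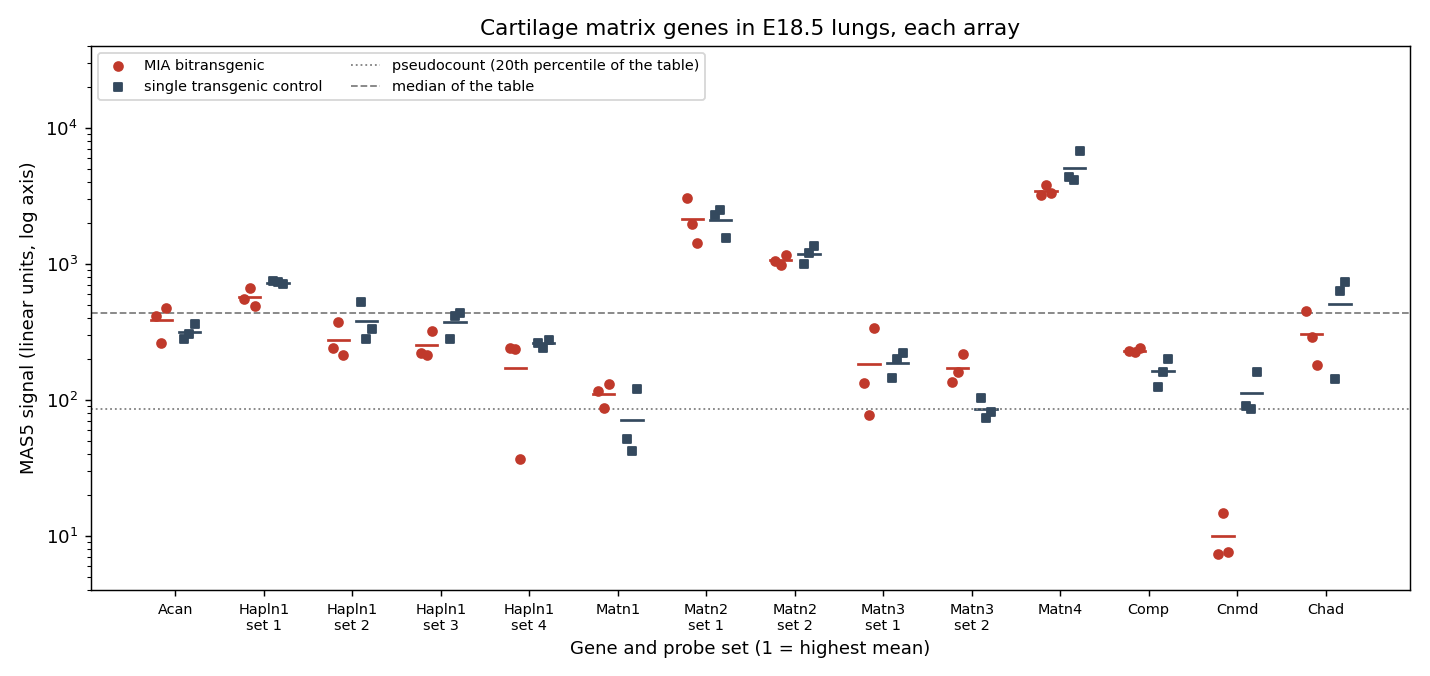
Signal of each of the 14 probe sets (linear MAS5 units on a log axis) in 3 bitransgenic (circles) and 3 control lungs (squares) at E18.5, with horizontal bars for group means and lines for the pseudocount (86.4) and the median of the table (434). Matn4 and both Matn2 probe sets lie well above the median on every array, and the Cnmd signals of the bitransgenic lungs lie between 7.46 and 14.8.

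The aggrecan complex was represented near the middle of the signal range. Acan, the core protein of the large cartilage proteoglycan, read 418, 262 and 479 in bitransgenic and 279, 306 and 359 in control lungs. The groups overlapped, and 1 of the 6 arrays exceeded the median signal. Its log2 change was 0.21 (SE 0.24, 95% interval -0.33 to 0.75, 3 arrays a group, limma adjusted p = 0.85), an interval that leaves room for shifts of either sign. It was 0.07 without bitransgenic 3, 0.42 without bitransgenic 2 and 0.14 with the Actb ratio added to the model.

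Hapln1, the link protein that locks aggrecan onto hyaluronan, was lower on all of its probe sets without passing the test. The brightest of 4 probe sets read 550, 666 and 491 in bitransgenic and 747, 738 and 708 in control lungs. All bitransgenic values lay below all controls, and the controls were close together. The log2 change was -0.33 (SE 0.17, 95% interval -0.71 to 0.06, 3 arrays a group, limma adjusted p = 0.619). The other 3 probe sets had log2 changes of -0.35, -0.44 and -0.55, each with overlapping groups. The last of these was below the signal filter, and its change rests on bitransgenic 3, which read 36.8 against 243 and 238 in the other bitransgenic lungs. Across the 6 arrays the correlation between pairs of these probe sets ranged from -0.13 to 0.784, with 3 of the probe sets at 0.586 or more among themselves and the probe set with the change of -0.44 at 0.335 or less with each of them. With the Actb ratio added to the model the brightest had a log2 change of -0.26.

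Matrilins 1 and 3, which are largely confined to cartilage, had low signals. Matn1 read 116, 88.1 and 131 in bitransgenic and 51.9, 42.5 and 121 in control lungs, with 2 control arrays below the pseudocount. Its groups overlapped and it was below the filter. With all genes in the fit its log2 change was 0.35 (SE 0.25, 95% interval -0.22 to 0.92, 3 arrays a group, limma adjusted p = 0.8). Without control 2 it was 0.22, without control 3 0.56, and with the Actb ratio added to the model 0.63.

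Both Matn3 probe sets were below the filter and went opposite ways. The brighter read 133, 77.1 and 340 in bitransgenic and 145, 200 and 220 in control lungs, with overlapping groups and a log2 change of -0.14 with all genes in the fit (SE 0.35, limma adjusted p = 0.963). The dimmer read 137, 160 and 220 in bitransgenic and 103, 73.4 and 82.1 in control lungs, with all bitransgenic values above the controls and a log2 change of 0.57 in the fit of probe sets (SE 0.22, limma adjusted p = 0.574). That dimmer set carries the array maker's suffix for probes that may also match other transcripts, so no direction is given for Matn3. With the Actb ratio added to the model the brighter had a log2 change of -0.23.

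Matrilins 2 and 4, which are found in many connective tissues besides cartilage, were the members with signals above the median on every array and every probe set. For Matn2 the brighter probe set read 3047, 1977 and 1436 in bitransgenic and 2293, 2505 and 1561 in control lungs. The spread within each group exceeded the difference between them, with a log2 change of -0.02 (SE 0.27, 95% interval -0.61 to 0.58, 3 arrays a group, limma adjusted p = 0.993). The log2 change ranged from -0.29 to 0.23 when single arrays were left out and was -0.47 with the Actb ratio added to the model. The dimmer read 1045, 984 and 1172 in bitransgenic and 1004, 1214 and 1361 in control lungs, also overlapping, and the correlation between these probe sets over the 6 arrays was -0.486.

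Matn4 had the largest shift among members past the filter. It read 3197, 3784 and 3324 in bitransgenic and 4365, 4117 and 6796 in control lungs, means of 3435 ± 309 and 5093 ± 1480 (SD, n = 3 each). The groups did not overlap, and control 3 stood above the other controls. Its log2 change was -0.52 (SE 0.19, 95% interval -0.96 to -0.09, 3 arrays a group), which did not pass (limma adjusted p = 0.406). Control 3 was also the array with the lowest Actb 3′ to 5′ ratio, 1.28, and correlated least with the rest on average, at 0.957. Its log2 change was -0.30 without that array, -0.26 with arrays weighted by their fit and -0.04 with the Actb ratio added to the model (limma adjusted p = 0.98).

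COMP, a pentameric member of the thrombospondin family that binds collagen, had a small upward difference at low signal. Comp read 228, 224 and 241 in bitransgenic and 124, 162 and 202 in control lungs. The bitransgenic values were close together and all above the controls, but every value lay below the median signal and the gene was below the filter. With all genes in the fit the log2 change was 0.36 (SE 0.22, 95% interval -0.14 to 0.86, 3 arrays a group, limma adjusted p = 0.746), and it was 0.57 with the Actb ratio added to the model.

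Chondromodulin, the membrane-derived inhibitor of endothelial growth encoded by Cnmd, showed the widest gap between groups, at the bottom of the signal range. Cnmd read 7.46, 14.8 and 7.60 in bitransgenic and 91.1, 86.7 and 160 in control lungs. The groups did not overlap, all 3 bitransgenic arrays were below the pseudocount, and the controls were above it, with control 1 and control 2 just above. With all genes in the fit its log2 change was -1.03 (SE 0.22, 95% interval -1.52 to -0.53, 3 arrays a group) and did not pass (limma adjusted p = 0.144). Since the bitransgenic signals lie far below the pseudocount and the controls near it, the size depended on it: the log2 change was -3.52 with no pseudocount and -0.36 with one 4 times as large. With the Actb ratio as a covariate it was -0.69 (limma adjusted p = 0.939), and with arrays weighted by their fit it was -0.86 (limma adjusted p = 0.026), the 1 alternative in which any member passed. With the signal filter, such weights called 1339 of 12625 genes, against 85 in the main test, and their estimation stopped before convergence. Detection calls were not used here, so a signal of this size cannot be placed above or below background.

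Chad encodes chondroadherin, a leucine-rich protein that binds collagen and integrin, and its control arrays disagreed with one another. It read 450, 288 and 181 in bitransgenic and 144, 637 and 740 in control lungs. The lowest value of all belonged to control 1 and the 2 highest to the other controls, so the groups overlapped. The log2 change was -0.45 (SE 0.47, 95% interval -1.50 to 0.59, 3 arrays a group, limma adjusted p = 0.83), and it became 0.22 with the Actb ratio added to the model. Without control 1 it was -1.04, without control 3 -0.11.

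**Figure D2:**
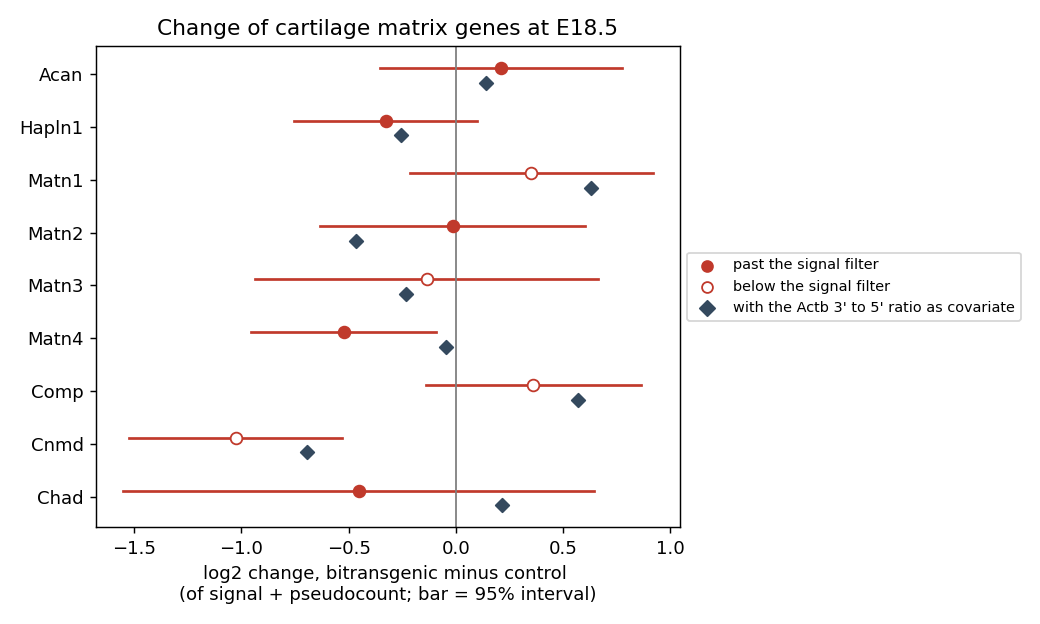
Log2 change of each member (bitransgenic minus control, of signal plus pseudocount) with its 95% interval from the limma fit of all 18193 genes, filled where the member was past the signal filter. Diamonds give the log2 change once the Actb 3′ to 5′ ratio is in the model, where Matn4 lies at -0.04, Chad at 0.22 and Matn2 at -0.47.

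The genes most like each member were found by Pearson correlation of log2 signals over the 6 E18.5 arrays, among the genes past the filter. These values describe 6 arrays that share the group difference and were picked as the highest of 12625 genes, so high values were to be had for any gene. For Acan they were Zfp954, C920006O11Rik and Trp73 (r = 0.993, 0.990 and 0.984), and for Hapln1 Wif1, Aifm3 and Wdr7 (0.993, 0.989 and 0.988). Matn2 was most like Nhlrc3, Dctn4 and Lrif1 (0.988, 0.985 and 0.984), and Chad most like Cygb, Cplx1 and Slc39a3 (0.985, 0.981 and 0.973). Matn4 was most like Gprc5a, Fendrr and Krit1 (0.990, 0.989 and 0.987), and the first and second of these differed by -0.94 and -0.65 on the log2 scale (limma adjusted p = 0.326 and 0.242). None of these genes was another member.

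Genes that work with the members were set beside them in 8 lists: cartilage collagens, chondrogenic transcription factors, skeletal growth signals, hyaluronan partners, paralogs and binding partners, other cartilage secreted proteins, proteases with inhibitors, and chondroitin sulfate synthesis. Of 80 such genes past the filter 2 rose, none fell and 78 did not pass, beside 0.238% of all genes that rose and 0.436% that fell. Their median log2 change was 0.00, against 0.01 over all genes past the filter. The rises were those of Mia, the transgene, and of Fmod, the small collagen-binding proteoglycan fibromodulin. Fmod read 13034, 9570 and 7847 in bitransgenic and 4667, 3998 and 2723 in control lungs, higher by 1.40 on the log2 scale (SE 0.23, limma adjusted p = 0.0322), from a probe set with the same suffix as the dimmer Matn3 set. It did not pass without control 2 or without any 1 of the bitransgenic arrays (limma adjusted p from 0.0674 to 0.127), and it was higher by 0.91 with the Actb ratio added to the model (limma adjusted p = 0.651).

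No collagen or regulator of cartilage passed the test. Of 8 cartilage collagens on the array 2 were past the filter and 0 were called. The fibril collagen gene Col27a1 differed by 0.33 on the log2 scale and Col9a1 by -0.09 (limma adjusted p = 0.481 and 0.952). Col2a1, the main collagen of cartilage, was below the filter, at 54.4, 37.6 and 88.5 in bitransgenic and 117, 38.9 and 278 in control lungs. Among 7 transcription factors past the filter Msx1, Sox9 and Foxc1 had 0.30, -0.27 and 0.19 (limma adjusted p = 0.703, 0.747 and 0.879). Sox9, the factor that cartilage cells depend on, is also made by distal lung epithelium, so its signal in lung does not mark cartilage. Among 13 growth signals Shh, Wnt5a and the BMP receptor gene Bmpr1b had 0.35, 0.35 and 0.52 (limma adjusted p = 0.378, 0.445 and 0.484).

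Binding partners of aggrecan and the enzymes of its sugar chains also gave no call. Vcan, the related proteoglycan versican, read 3209, 2492 and 3810 in bitransgenic and 1898, 1682 and 2450 in control lungs, with all bitransgenic values above the controls and a log2 difference of 0.63 (limma adjusted p = 0.289). The hyaluronan receptor gene Cd44 and the hyaluronan synthase gene Has1 had 0.25 and -0.23 (limma adjusted p = 0.576 and 0.807). In the paralog and partner list Prelp, a leucine-rich matrix protein gene, had -0.79 and the collagen-binding integrin gene Itga1 -0.42 (limma adjusted p = 0.207 and 0.278), and in the list of secreted proteins Clec3b and Fibin had -0.74 and 0.27 (limma adjusted p = 0.46 and 0.522). Of 13 proteases and inhibitors Timp3, Mmp9 and Adamts12 had -0.61, -0.62 and 0.19 (limma adjusted p = 0.156, 0.514 and 0.746). Of 16 genes for chondroitin sulfate Chsy1, Chst12 and Chst11, a synthase and sulfotransferases, had -0.41, -0.42 and -0.33 (limma adjusted p = 0.41, 0.535 and 0.611).

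Trachea and lung at E11.5 were compared to ask which genes differ between the tissues, here whether cartilage matrix genes were already higher in trachea. Each tissue had a single array, so there is no replicate error and no test. Ratios are trachea over lung of signal plus 84.3, the 20th percentile of that table, and a gene was counted as apart beyond 2-fold where its higher signal exceeded the median, 543. Of the 7 members on that array 1, Matn4, had a signal above the median, and 0 were counted as apart. Among all 5121 genes above the median 2.34% were apart towards trachea and 1.21% towards lung. The members' median log2 ratio was -0.07, against -0.01 over all genes, and it is the ratio of Matn1, whose signals were below the pseudocount in both tissues.

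Matn4 was the member with the clearest signal at this stage, at 1506 in trachea and 956 in lung, a log2 ratio of 0.61. Chad was equal in both tissues, at 299 in trachea and 299.8 in lung, a log2 ratio of 0.00. Acan, Matn1 and Matn3 were near the floor of the table. Acan read 34.6 in trachea and 36 in lung, Matn1 57.5 and 64.8, and Matn3 14.5 and 20.6, all below the pseudocount. No ratio can be read from such signals.

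The remaining members gave a difference at low signal only. Hapln1 read 19.7 in trachea and 296 in lung, a log2 ratio of -1.87 that was -3.91 with no pseudocount and -0.83 with one 4 times as large. Its trachea signal was below the pseudocount and its lung signal below the median. The 2 probe sets of Matn2 disagreed: the brighter read 114 in trachea and 313 in lung (just past 2-fold on the log2 scale), the dimmer 108 and 17.4 (log2 ratio 0.92). Without the condition on signal Hapln1 and Matn2 were past 2-fold towards lung and no member towards trachea, where 2.81% and 3.91% of all 8251 genes lay. E11.5 and E18.5 signals come from different array types and were not set against each other.

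**Figure D3:**
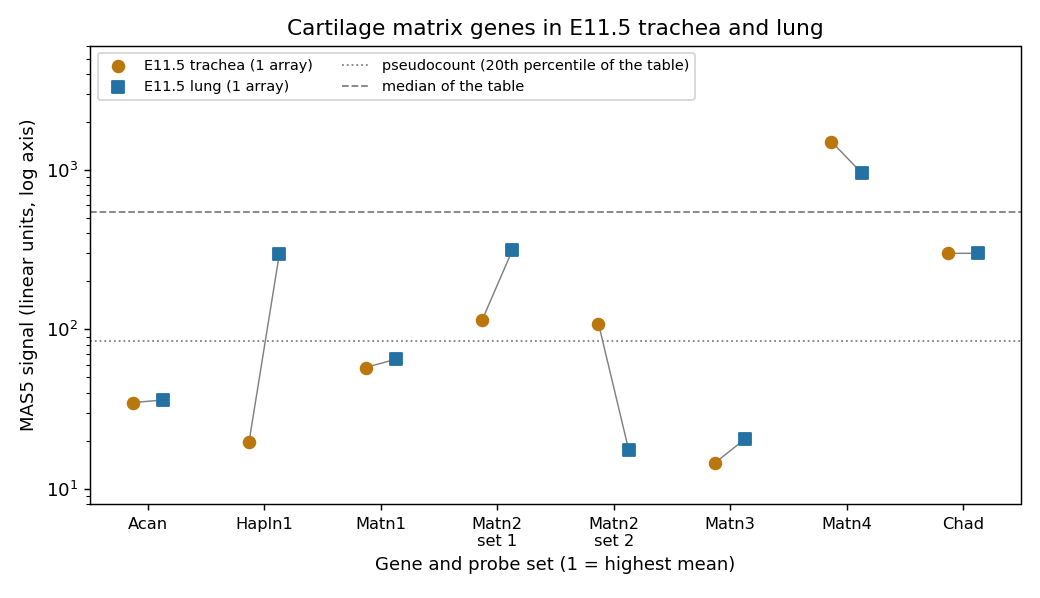
Signal of each of the 8 probe sets (linear MAS5 units on a log axis) on the trachea array (circles) and the lung array (squares) at E11.5, with lines for the pseudocount (84.3) and the median (543). Matn4 alone lies above the median, the Acan, Matn1 and Matn3 signals lie below the pseudocount in both tissues, and the lines of the Matn2 probe sets slope in opposite directions.

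Several companions of the members were past 2-fold towards trachea, whereas Matn4, the member higher there, was within 2-fold. Of 39 companion genes above the median, in lists chosen with earlier results known, 8 were apart towards trachea and 2 towards lung. Among all 5121 genes above the median the shares were 2.34% and 1.21%. Minor cartilage collagens were among the first: Col11a1 read 2206 in trachea and 471 in lung (log2 ratio 2.04), and Col9a3 2280 and 775 (1.46), while Col9a1, at 1988 and 1005 (0.93), was within 2-fold. Col2a1 was below the pseudocount in both, at 48.2 in trachea and 62.7 in lung. The transcription factor gene Shox2 had a log2 ratio of 1.37, and Wnt5a, a secreted Wnt, of 3.69, with a lung signal of 15.5 that lay below the pseudocount.

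The others past 2-fold towards trachea came from 3 lists. The thrombospondin gene Thbs2 had a log2 ratio of 1.66, the decorin gene Dcn of 1.59, Mgp, an inhibitor of calcification, of 1.41, and the protease gene Htra1 of 1.20. Fmod and Mia were apart towards lung, with log2 ratios of -1.45 and -2.77, and the trachea signal of Mia, 81.4, was below the pseudocount. Among the rest, Has2 and Vcan had 0.43 and 0.36, Snorc -0.90, Chpf 0.68, Slc35d1 -0.41 and Ugdh 0.39. Ptch1 and Bmp7 had -0.70 and 0.68, Msx1 0.31, Timp3 0.54 and Mmp14 0.46. None of the 5 chondroitin sulfate genes and 2 hyaluronan partners above the median was apart.

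Markers of other tissues also differed between the E11.5 arrays, where 2.34% of all 5121 genes above the median were apart towards trachea. Of 6 markers of pharyngeal and neural crest mesenchyme 3, Six2, Twist1 and Dlx2, were apart towards trachea. Prrx1, Alx4 and Barx1, with signals below the median, had log2 ratios of 0.73, -0.23 and -0.85. All 6 summed to 8288 in trachea and 1271 in lung. Of 5 smooth muscle markers 3 were apart towards trachea, and the 5 summed to 12620 in trachea and 4817 in lung. Of 3 tendon and perichondrium markers present, Postn alone was apart, at 3346 in trachea and 874 in lung (log2 ratio 1.84). Scx and Col1a1 had 0.99 and 0.03, and the 3 summed to 14880 in trachea and 10400 in lung. Of 6 skeletal muscle markers Myog alone was apart (log2 ratio 1.19), with sums of 1996 in trachea and 1985 in lung. Bone markers were low, with 0 of 3 above the median and sums of 795 in trachea and 897 in lung. Among airway epithelial markers Sox2 read 4260 in trachea and 1016 in lung. Foxj1, Trp63, Scgb1a1 and Krt5 had log2 ratios of -0.73, -0.94, -0.09 and 0.24. Among lung epithelial markers Sftpc read 257 in trachea and 1503 in lung. Sftpb, Epcam, Cdh1 and Foxa2 had log2 ratios of -0.17, 0.14, -0.34 and -0.04, so neither list moved as a whole. The part of these tissues in the ratios of the collagens and Wnt5a was not tested. At E18.5 the summed signals of bone markers, 973 to 1468 in bitransgenic and 973 to 1487 in control lungs, and of skeletal muscle markers, 1193 to 2090 in bitransgenic and 1732 to 2305 in control lungs, overlapped between the groups, whereas those of the 5 endothelial markers (26950 to 29570 in bitransgenic and 34090 to 46920 in control lungs) did not. The sum of the 5 airway epithelial markers did not overlap either (39520 to 43380 in bitransgenic and 49850 to 59930 in control lungs), and nearly all of it was the club cell gene Scgb1a1, at 38418 in bitransgenic and 51356 in control lungs on average, while Sox2 was at 1227 in bitransgenic and 1031 in control lungs. The sums of the 5 tendon and perichondrium markers, 23930 to 29770 in bitransgenic and 29340 to 47240 in control lungs, overlapped only at their ends. No marker was called in any of these lists. The part of these tissues in the lower Cnmd and Matn4 signals was not tested.

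**Figure D4:**
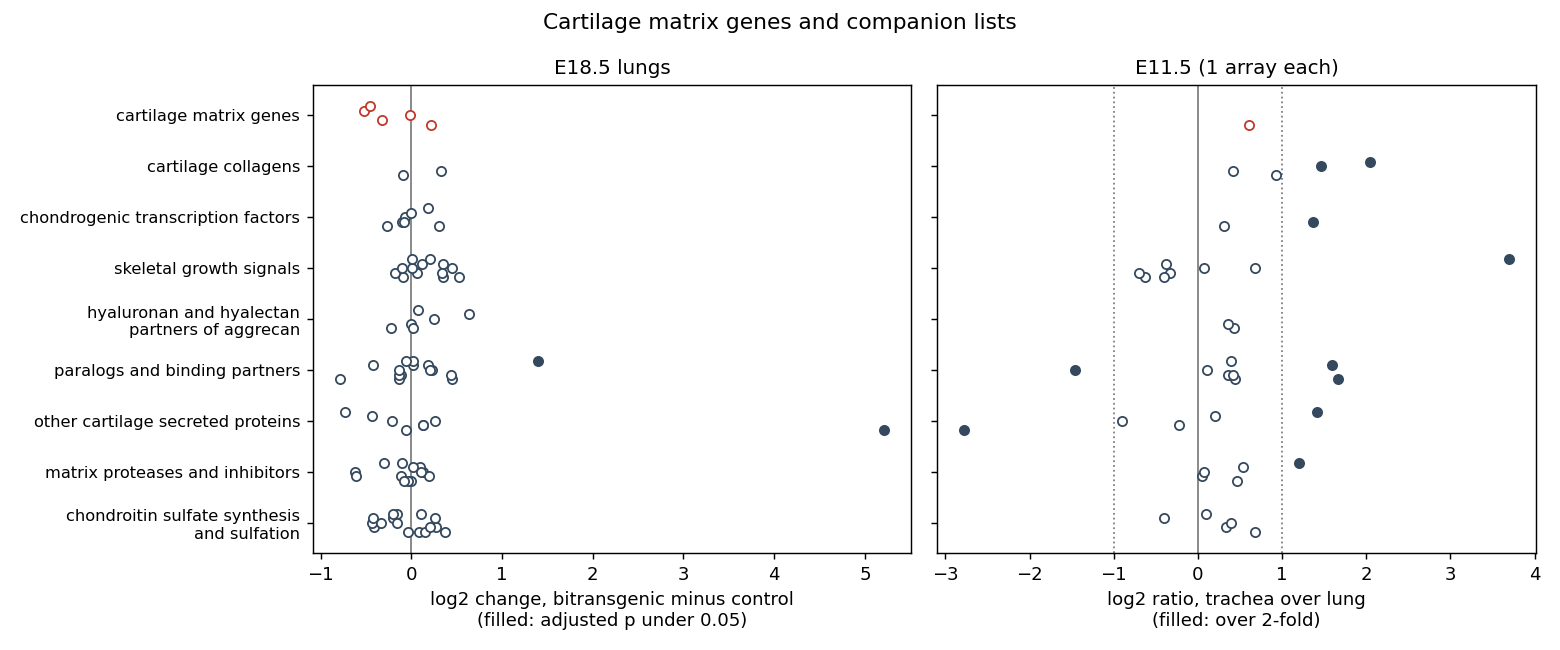
Log2 change at E18.5 (left, bitransgenic minus control, genes past the filter, filled where the limma adjusted p was under 0.05) and log2 ratio at E11.5 (right, trachea over lung, genes with a signal above the median, filled beyond 2-fold) for the cartilage matrix genes and 8 companion lists. At E18.5 only Mia, at 5.21, and Fmod are filled, and at E11.5 the 1 member shown, Matn4, lies at 0.61 between the dotted lines.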

How the data were processed

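Per the submitters' processing notes, the authors made the signals with MAS5 (version not given in the sources used here). The deposited values are intensities, 1 linear signal per probe set and array. All 8 columns were used. Control probe sets were left out, 64 at E18.5 and 66 at E11.5, and GEO's platform annotation gave 1 symbol to 34945 and 10833 probe sets, several to 932 and 396 and none to 9160 and 1193.

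Signals plus the 20th percentile of the table were taken to log2. The probe set with the highest mean stood for a gene, and E18.5 genes under the 40th percentile were left out. The test was that of limma 3.58.1 under R 4.3.3 (lmFit, eBayes with intensity trend, no covariate), two-sided. It was also run on simulated data with independent normal noise and planted shifts larger than those of the members past the filter. Such data cannot show how the test behaves for smaller shifts or for arrays that differ in the Actb ratio. Exact permutation of 3 against 3 gives no p under 0.1. The number of arrays limits the precision.

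Members and lists were chosen with earlier results of these data known. Named genes were all members, Mia, and per list those called plus the smallest p up to 3 genes (at E11.5 those apart plus the largest ratios). Col2a1, Sox2, Sftpc, Scgb1a1 and the other tissue markers named were added after their values were seen. Sequences are RefSeq's, and the 50 transcribed bases of each window were not used. Figures used matplotlib 3.10.9. Alternatives covered scaling, pseudocount, filter, probe set choice, variance model, the Actb ratio as covariate and each replicate left out.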

Additional observations from a re-analysis of the deposited data

How the results depend on the processing

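No member was called in any of the 18 alternatives to the main E18.5 test, which included 1 with no signal filter. Members below the filter were also fitted with all genes under the alternatives other than those of the filter. Comp, Matn1 and Cnmd, fitted with all genes, kept their signs in all 16 fits each. Matn4 did so in all 18 fits, Acan in all 17 and Hapln1 in all 19, where several of its probe sets counted singly. Matn2 changed sign when single replicates were left out (log2 change from -0.29 to 0.23), as did Matn3 (-0.53 to 0.16), which was also 0.22 with the mean of its probe sets and 0.57 for its dimmer probe set. Chad was 0.22 with the Actb ratio in the model. The companion genes called numbered 1, Mia alone, with median centring, no filter, no variance trend or the Actb covariate, 1 to 2 with a replicate left out, and 20 with array weights, whose estimation stopped before convergence and which called 1339 genes in all, against 85. The Actb covariate called 20 genes in all, and leaving out a replicate 22 to 97. Cnmd, with all genes in the fit, passed with array weights only (-0.86). Without the condition on signal 2 members were over 2-fold apart at E11.5. The cause of these shifts was not tested. Low signal limits 4 members at E18.5 and 6 at E11.5. No label pairs arrays of the groups.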
